A study of Mus musculus with 2 samples.

Results

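The genes described here are 9 members of the IL-6 family: 4 cytokines, Il6, Lif, Il11 and Clcf1, and 5 receptor chains, Il6st, Il6ra, Lifr, Osmr and Il11ra1. They were taken by symbol from the deposited count table, and all 9 were found among its 19674 gene rows. The table came from bulk RNA sequencing of 2 cultures of MDFB, a wild-type fibroblast line from mouse skin, 1 treated with IL-17A and 1 with vehicle. IL-17A is a T cell cytokine whose receptor is carried by fibroblasts and other stromal cells, and the study concerns which cells it acts on in inflamed skin. Both libraries were taken as the same batch here, which was not checked. The labels gave neither the dose nor the duration of treatment. With 1 library per group, no difference has a replicate check and no p-value is given. A single line also cannot show how fibroblasts vary between animals.

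Most cytokines of this family share a signalling receptor chain, gp130, which is encoded by Il6st and made by nearly all cells. IL-6 first binds IL-6 receptor alpha and IL-11 binds IL-11 receptor alpha, and these complexes then join gp130. LIF joins gp130 to the LIF receptor, mouse oncostatin M acts mainly through gp130 with the oncostatin M receptor, and the product of Clcf1 binds the ciliary neurotrophic factor receptor. Engaged gp130 activates JAK kinases and the transcription factor STAT3, and SOCS3 feeds back on gp130. In skin, fibroblasts are a source of IL-6 and LIF during inflammation.

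The IL-17A library held 23559416 counts and the vehicle library 24427027. Levels are given as scaled counts (CPM, counts relative to the library size), with library sizes scaled by the trimmed mean of M-values (TMM), and intervals in brackets are exact 95% intervals that cover counting error only. A gene is called measured where its counts in both libraries sum to 50 or more. Measured genes are described as higher or lower once their ratio reaches 2-fold, which is a rule of size and not a test. The median log2 ratio over all 13534 measured genes was 0.00. Fibroblast markers were abundant in both libraries: Pdgfra, a receptor that marks fibroblasts, had 893 CPM with IL-17A and 929 CPM with vehicle, Col1a1 had 15153 CPM with IL-17A and 23623 CPM with vehicle, and Vim had 2061 CPM with IL-17A and 3109 CPM with vehicle. These 3 were among the 6 of 10 listed markers with a lower level with IL-17A, and 4 had a higher one, among them Pdgfrb at 1287 CPM with IL-17A and 988 CPM with vehicle. None of the 10 reached 2-fold in either direction, and their summed level was 38472 CPM with IL-17A and 56160 CPM with vehicle.

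The promoters of the cytokine genes Il6 and Lif are shown because these 2 transcripts differed most between the libraries, and those of Il6st and Osmr because these receptor transcripts lay on opposite sides of no change. Each sequence runs from 250 bases before to 50 bases after the RefSeq transcription start, 5′ to 3′ on the gene's own strand, in GRCm38.p6 (mm10). Capitals mark matches, on either strand, to the NF-kB consensus decamer, to the C/EBP motif TTNNGNAA, to the AP-1 motif TGANTCA or to the STAT motif TTCNNNGAA. No marked match overlaps a match to another motif.
Il6, chr5:30012864-30013163, plus strand: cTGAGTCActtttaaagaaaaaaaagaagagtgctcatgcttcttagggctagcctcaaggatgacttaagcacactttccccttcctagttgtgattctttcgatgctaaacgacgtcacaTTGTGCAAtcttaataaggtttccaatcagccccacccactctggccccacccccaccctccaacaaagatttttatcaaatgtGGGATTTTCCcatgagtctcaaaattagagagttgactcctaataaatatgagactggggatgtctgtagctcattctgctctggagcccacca
Lif, chr11:4257318-4257617, plus strand: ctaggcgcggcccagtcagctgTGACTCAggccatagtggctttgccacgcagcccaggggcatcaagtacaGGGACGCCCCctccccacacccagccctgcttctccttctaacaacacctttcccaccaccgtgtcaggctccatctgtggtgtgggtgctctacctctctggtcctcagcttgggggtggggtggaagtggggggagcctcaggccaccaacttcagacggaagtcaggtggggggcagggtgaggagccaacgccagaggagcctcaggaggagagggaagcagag
Osmr, chr15:6874264-6874563, minus strand: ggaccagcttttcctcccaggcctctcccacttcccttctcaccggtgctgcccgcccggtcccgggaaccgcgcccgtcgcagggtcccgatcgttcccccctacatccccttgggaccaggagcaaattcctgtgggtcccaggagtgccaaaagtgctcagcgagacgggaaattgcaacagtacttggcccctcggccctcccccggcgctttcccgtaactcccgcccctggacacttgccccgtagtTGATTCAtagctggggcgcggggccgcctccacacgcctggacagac
Il6st, chr13:112463820-112464119, plus strand: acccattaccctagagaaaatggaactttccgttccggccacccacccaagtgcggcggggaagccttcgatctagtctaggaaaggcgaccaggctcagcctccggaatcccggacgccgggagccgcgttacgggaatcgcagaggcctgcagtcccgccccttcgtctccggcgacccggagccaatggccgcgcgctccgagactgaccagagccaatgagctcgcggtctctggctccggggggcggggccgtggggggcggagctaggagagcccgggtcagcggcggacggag

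Among the 8 members with a promoter entry in the RefSeq table, the NF-kB decamer matched in those of Il6 and Lif and in none of the other 6. The Il6 match, GGGATTTTCC, lies 44 to 35 bases before the start. The Lif match, GGGACGCCCC, lies 178 to 169 bases before it and reads as a match on both strands. Of 32851 promoters of the same length in the table, 8.46% held this decamer. The AP-1 motif matched once in the promoters of Il6, Lif and Osmr and in 1 of the 2 Il11 entries, against 7.81% of all promoters. The C/EBP motif matched in Il6, as TTGTGCAA 128 to 121 bases before the start, and in Il6ra, but 40.7% of all promoters held it. The STAT motif, held by 8.30% of all promoters, matched in no member's entry. These matches describe the letters and do not show binding. Clcf1 has no entry in the table.

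Of the 8 measured members, 2 were higher with IL-17A by 2-fold or more and 0 were lower, beside 5.19% of all measured genes higher and 3.69% lower. Both were cytokines. The summed level of the 4 cytokine transcripts was 112 CPM with IL-17A and 22.9 CPM with vehicle. The 5 receptor transcripts together had 1008 CPM with IL-17A and 1007 CPM with vehicle, while 3 chains were above and 2 below their vehicle level, all within 2-fold. The median log2 ratio was 0.68 over the 8 measured members, 2.79 over the 3 measured cytokines and 0.51 over the 5 receptor chains.

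**Figure D1:**
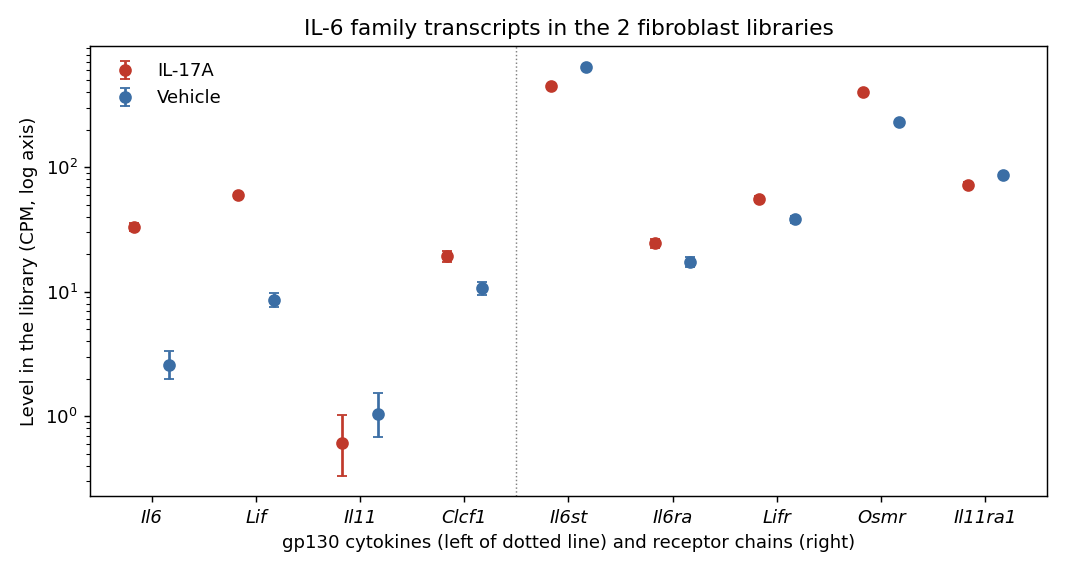
Level of each of the 9 members in the IL-17A library (left point of each pair) and the vehicle library (right point), in CPM on a log axis, with exact 95% Poisson intervals of the counts. Il6 stands at 33.2 CPM with IL-17A and 2.60 CPM with vehicle, whereas the receptor chains on the right differ by less than 2-fold.

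Il6 encodes interleukin 6, which drives the acute-phase response and supports B and T cell responses. It had 764 counts (Poisson interval 711 to 820) with IL-17A and 65 counts (50.2 to 82.8) with vehicle. The count intervals lie far apart. The level was 33.2 CPM with IL-17A and 2.60 CPM with vehicle, a 12.8-fold (9.91 to 16.7) higher level that ranked above 99.5% of measured genes. Il6 lies on chromosome 5 at 30013114 to 30019981 in the GENCODE M21 annotation of GRCm38, and none of the 50-base windows of its longest transcript occurs in the transcripts of another gene.

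Lif encodes leukaemia inhibitory factor, known for keeping mouse embryonic stem cells undifferentiated and as an inflammatory mediator. It had 1365 counts (1294 to 1439) with IL-17A and 215 counts (187 to 246) with vehicle. At 59.3 CPM with IL-17A and 8.60 CPM with vehicle it was 6.90-fold (5.97 to 8.005) higher, above 99.1% of measured genes. The fold of Il6 exceeded that of Lif by 1.85 times (1.38 to 2.52), a comparison in which library scaling cancels. Per kilobase of annotated exon, Il6 and Lif stood level with IL-17A, at 13.7 and 13.6 CPM per kilobase. With vehicle Il6 was the lower of the pair, at 1.07 against 1.98 CPM per kilobase.

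Clcf1, the cardiotrophin-like cytokine, had 442 counts (402 to 485) with IL-17A and 267 counts (236 to 301) with vehicle. It stood at 19.2 CPM with IL-17A and 10.7 CPM with vehicle. The ratio was 1.80-fold (1.54 to 2.10), inside the 2-fold limit, and its interval reached past that limit. The ratio ranked above 93.5% of measured genes. Of the windows of its longest transcript, 7.54% also occur in transcripts annotated to other genes, and its exons overlap those of another annotated gene on the same strand, AC109138.7, so its counts are uncertain.

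Il11, a cytokine linked to fibroblast activation and fibrosis, had 14 counts (7.65 to 23.5) with IL-17A and 26 counts (16.98 to 38.1) with vehicle. With 40 counts in all it was under the minimum and was not called. Its log2 ratio of -0.77 (-1.82 to 0.22) had an interval that spanned 0, so a difference was not detectable at this depth. A fold for Il11 like that of Il6 or Lif lies outside the interval: the fold of Il6 was 21.8 times (10.3 to 47.2) that of Il11, and that of Lif 11.8 times (5.81 to 24.8).

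**Figure D2:**
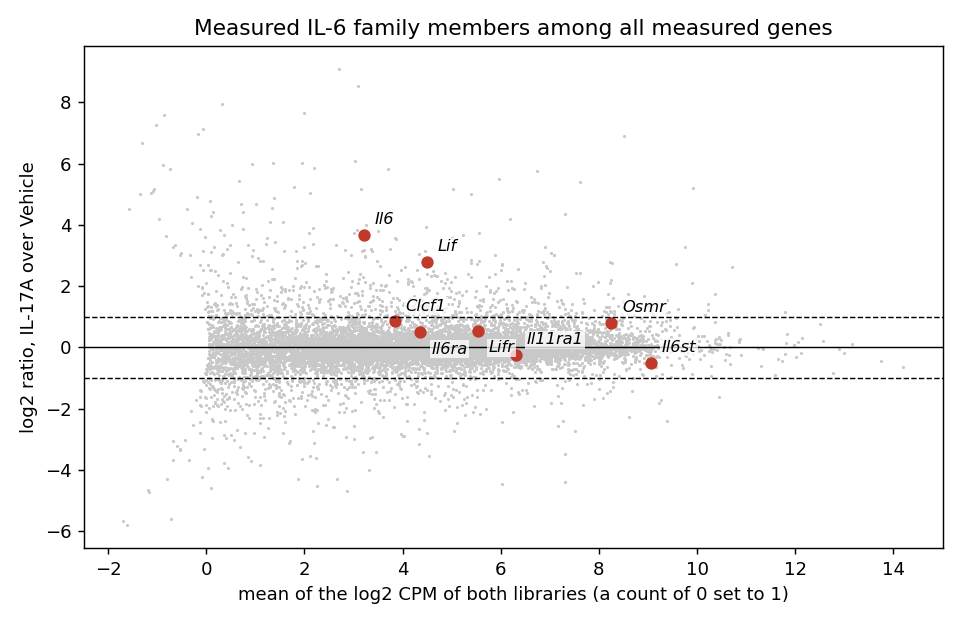
Log2 ratio of IL-17A over vehicle against the mean log2 CPM of both libraries for all 13534 measured genes (grey) with the 8 measured members in red and the 2-fold limits as dashed lines. Il6 at 3.68 and Lif at 2.79 lie above the upper limit and the other 6 members lie between the limits.

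Il6st, the shared gp130 chain, had the highest level of the members per kilobase of annotated exon in both libraries, 40.7 CPM with IL-17A and 57.2 CPM with vehicle. It had 10393 counts with IL-17A and 15890 with vehicle, which is 452 CPM with IL-17A and 635 CPM with vehicle. It was 1.41-fold (1.37 to 1.44) lower with IL-17A, inside the 2-fold limit, and its log2 ratio of -0.49 was above only 10.4% of measured genes. Osmr, the oncostatin M receptor chain, went the other way. It had 9275 counts with IL-17A and 5746 with vehicle, at 403 CPM with IL-17A and 230 CPM with vehicle, and was 1.75-fold (1.70 to 1.81) higher, above 93.2% of measured genes. Counting intervals for these 2 genes are narrow because both had high counts, but they leave out the variation between cultures.

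The relation between these chains did not depend on how libraries were scaled. The Osmr count divided by the Il6st count was 0.892 with IL-17A and 0.362 with vehicle, so the fold of Osmr exceeded that of Il6st by 2.47 times (2.37 to 2.57). Per kilobase of the union of annotated exons, Osmr stood at 33.3 CPM with IL-17A and 19.0 CPM with vehicle, so that it stayed below Il6st in both. Lengths taken from the longest transcript change the order, because the Osmr exon union of 12113 bases is much longer than its longest transcript of 5491 bases. By that length Osmr had 73.4 CPM per kilobase with IL-17A, above Il6st at 52.0, and 41.8 with vehicle, below Il6st at 73.2. As a share of the summed per-length level of the 5 chains, Osmr made up 33.9% with IL-17A and 18.8% with vehicle, or 45.3% with IL-17A and 27.1% with vehicle by longest transcript. Il6st made up 41.4% with IL-17A and 56.6% with vehicle, or 32.1% with IL-17A and 47.5% with vehicle by longest transcript.

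**Figure D3:**
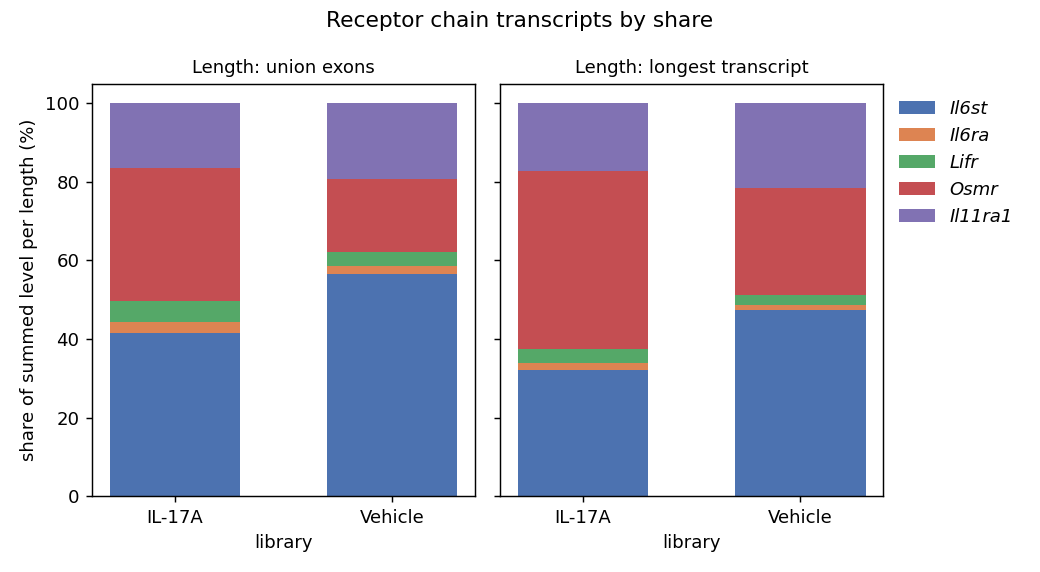
Share of each receptor chain in the summed per-length level of the 5 chains (%), IL-17A left of vehicle, with length as the union of annotated exons (left panel) or the longest transcript (right panel). The Osmr part is larger and the Il6st part smaller in the IL-17A library under both lengths, in the left panel 33.9% with IL-17A against 18.8% with vehicle for Osmr and 41.4% with IL-17A against 56.6% with vehicle for Il6st.

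The chains that bind LIF and IL-6 had lower levels per kilobase of exon union. Lifr, which pairs with gp130 to bind LIF, had 1290 counts with IL-17A and 956 with vehicle, at 5.20 CPM per kilobase with IL-17A and 3.55 with vehicle, and was 1.47-fold (1.35 to 1.60) higher. Il6ra, the chain that binds IL-6, had 565 counts with IL-17A and 432 with vehicle, at 24.6 CPM with IL-17A and 17.3 CPM with vehicle, and was 1.42-fold (1.25 to 1.61) higher. Both ratios were inside the 2-fold limit, and they did not differ from each other beyond counting error, with 1.03 times (0.885 to 1.20) between them. Il6ra was the lowest receptor chain per kilobase of exon, at 2.84 CPM with IL-17A and 1.999 CPM with vehicle. The per-length level of Il6 was 4.81 times that of Il6ra with IL-17A and 0.536 times with vehicle. Exons of Il6ra overlap those of an antisense gene, Gm42809, and the strand setting of the counting is not given in the sources used here.

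Il11ra1, the chain that binds IL-11, had 1670 counts with IL-17A and 2166 with vehicle, at 72.6 CPM with IL-17A and 86.6 CPM with vehicle, and was 1.19-fold (1.12 to 1.27) lower, inside the 2-fold limit. Its counts are uncertain. Of the 2556 windows of 50 bases in its longest transcript, 60.0% also occur in transcripts of its near-identical copies Il11ra2 and Gm13305 or of another gene, so reads may have been dropped or split. Il11ra1 also overlaps exons of the chemokine gene Ccl27a on the opposite strand, which had 60 counts with IL-17A and 74 with vehicle.

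Ranked by fold, the members ran Il6, Lif, Clcf1, Osmr, Lifr, Il6ra, Il11ra1, Il6st and Il11. Of the 8 pairs of neighbours in this order, 5 differed beyond counting error. The other 3 did not: Clcf1 and Osmr at 1.03 times (0.876 to 1.20), Lifr and Il6ra as above, and Il6st and Il11 at 1.21 times (0.611 to 2.52). By level per kilobase of exon union, the order with IL-17A was Il6st, Osmr, Il11ra1, Il6, Lif, Lifr, Clcf1, Il6ra and Il11. With vehicle it was Il6st, Il11ra1, Osmr, Lifr, Clcf1, Il6ra, Lif, Il6 and Il11, so Il6 and Lif stood above Lifr, Clcf1 and Il6ra with IL-17A, while with vehicle Il6 stood below all 3 and Lif below Lifr and Clcf1. Several places depend on the length used. Lif and Il6ra were close with vehicle, at 1.98 and 1.999 CPM per kilobase, and changed places by longest transcript, at 2.14 and 1.9995. Il11ra1 and Osmr with vehicle, at 19.4 and 19.0, also changed places, at 33.2 and 41.8. With IL-17A, Il6 and Lif did so at 14.2 and 14.7, as did Il6st and Osmr as given above. In both libraries these orders compare genes whose expressed isoforms are not known.

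**Figure D4:**
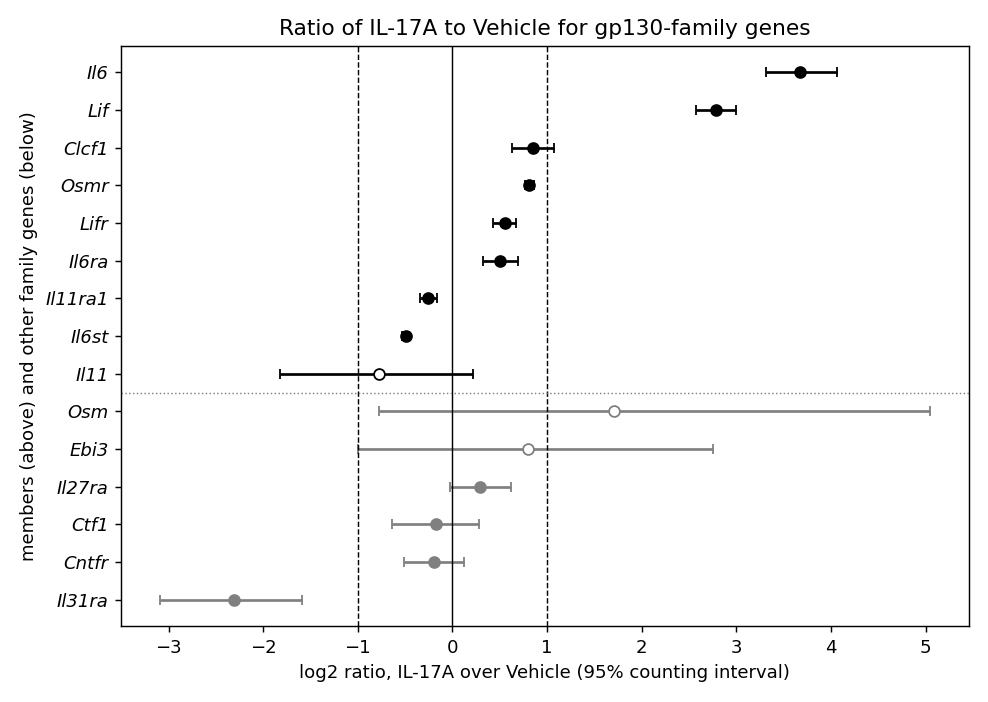
Log2 ratio of IL-17A over vehicle with its 95% counting interval for the 9 members (black, above the dotted line) and 6 other family genes (grey, below), with dashed lines at 2-fold and open circles for genes under 50 summed counts. Of the measured genes, Il6 and Lif lie beyond the upper limit and Il31ra at -2.30 beyond the lower one. Osm, under 50 summed counts, is also beyond the upper limit at 1.71, with an interval that spans 0.

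Of 11 other ligands and receptors of the family on the list, 6 were in the table, 4 were measured, 1 of these was lower and 0 were higher. Their median log2 ratio was -0.19. For this list and the pathway lists below, the share over all measured genes was 5.19% higher and 3.69% lower. Il31ra, which pairs with the oncostatin M receptor to bind the itch cytokine IL-31, had 19 counts with IL-17A and 102 with vehicle and was 4.94-fold (3.01 to 8.54) lower. Its exons overlap those of Gm3226 on the same strand, so its counts are uncertain. Cntfr, the receptor that the Clcf1 product binds, stood at -0.20 (-0.51 to 0.12), with 151 counts with IL-17A and 188 with vehicle.

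Ligands of the remaining receptors were scarce. Osm, which encodes oncostatin M, had 6 counts with IL-17A and 2 with vehicle, although its receptor chain Osmr had 9275 with IL-17A and 5746 with vehicle. Ebi3, a subunit of IL-27, had 8 counts with IL-17A and 5 with vehicle. Ctf1, which encodes cardiotrophin 1 and has exons that overlap Ctf2 on the opposite strand, had 75 counts with IL-17A and 92 with vehicle and a log2 ratio of -0.17 (-0.63 to 0.28). Il27ra, which pairs with gp130 to bind IL-27 and overlaps Palm3 on the opposite strand, had 174 counts with IL-17A and 154 with vehicle and a log2 ratio of 0.30 (-0.02 to 0.62). Intervals for both spanned 0. Cntf, Ctf2, Il27, Il31 and Il11ra2 were not analysed here.

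Downstream of gp130, the relay of kinases, STAT proteins and the SHP2 pathway differed little as a list. Of its 17 measured genes, 1 was higher and none was lower, and the median log2 ratio was 0.05. The exception was Jak2, a kinase that associates with gp130, with 15163 counts with IL-17A and 3548 with vehicle, 4.64-fold (4.48 to 4.82) higher. Stat3, the main transcription factor of the pathway, was 1.33-fold (1.29 to 1.37) higher, the adaptor Shc1 1.44-fold and the kinase Map2k1 1.73-fold, all inside the limit.

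Among 13 negative regulators and genes of receptor shedding, 3 were higher and 1 lower, with a median log2 ratio of 0.35. Socs3, the feedback inhibitor that binds gp130, had 5232 counts with IL-17A and 1413 with vehicle and was 4.02-fold (3.79 to 4.27) higher. Socs1 was 2.57-fold (2.16 to 3.07) higher, and Socs2, which restrains growth hormone signalling, was 2.29-fold (1.86 to 2.82) lower. Rhbdf2 encodes iRhom2, which brings the protease ADAM17 to the cell surface, where ADAM17 can shed IL-6 receptor alpha. It was 2.09-fold (1.89 to 2.32) higher, at a log2 ratio of 1.06 that fell just inside the limit, at 0.997, when libraries were scaled by total counts.

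Of 18 measured genes on a list of transcripts that STAT3 can induce, 6 were higher and 1 lower, with a median log2 ratio of 0.68. Over all measured genes, 5.19% were higher and 3.69% lower. This list shares 4 genes with other lists here, among them Socs3 and Cebpd, which are each counted as higher in both of their lists. Hp, which encodes haptoglobin, an acute-phase protein, was 45.3-fold (39.8 to 51.8) higher and Timp1, a metalloproteinase inhibitor, 3.37-fold (3.26 to 3.47) higher, while Ccnd1, which encodes cyclin D1, was lower at a log2 ratio of -1.81 (-1.88 to -1.73). Several of these genes are also direct targets of NF-kB or C/EBP factors, and the part of STAT3 in their levels was not tested.

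Factors that act on the Il6 gene or its mRNA included 4 higher genes among 20 measured and no lower one, and their median log2 ratio was 0.59. Zc3h12a encodes Regnase-1, an RNase that degrades Il6 mRNA, and was 4.12-fold (3.89 to 4.37) higher, with 5553 counts with IL-17A and 1465 with vehicle. Relb, an NF-kB subunit, was 2.94-fold (2.73 to 3.18) higher, Cebpd, a C/EBP transcription factor, 2.47-fold (2.35 to 2.60) higher and Nfkb1, which encodes the p50 subunit, 2.03-fold (1.94 to 2.12) higher. Nfkb1 was inside the limit at a log2 ratio of 0.95 with total-count scaling and 0.98 with upper-quartile scaling.

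**Figure D5:**
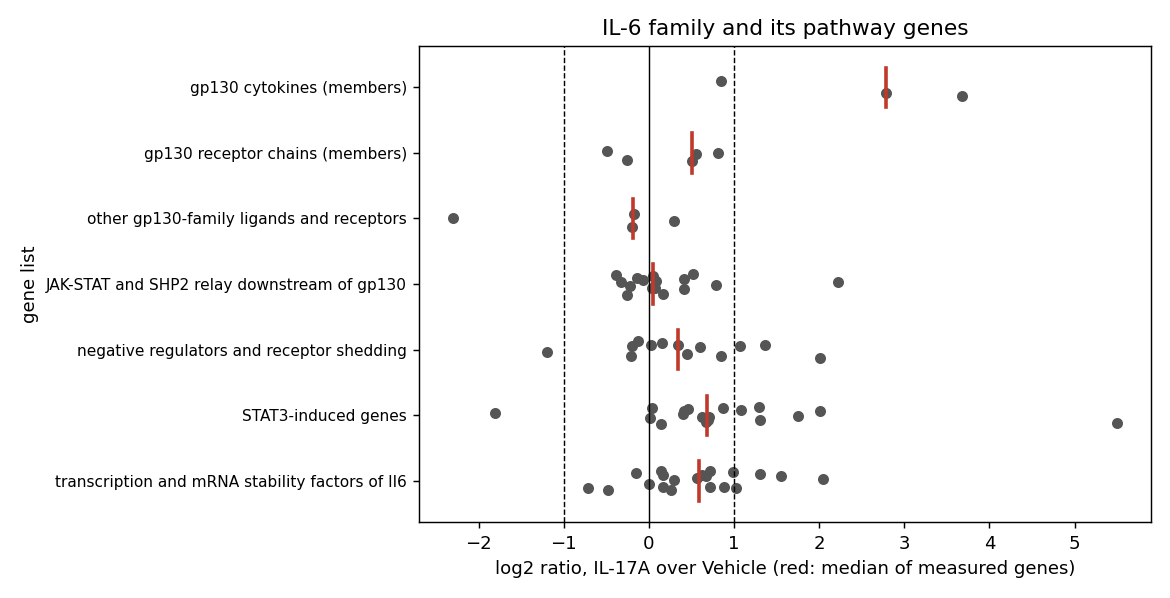
Log2 ratio of IL-17A over vehicle for each measured gene of the cytokine and receptor members and of 5 related lists, with a red bar at each median and dashed lines at 2-fold. The cytokine median is 2.79, that of the receptor chains 0.51 and that of the JAK-STAT and SHP2 relay 0.05, with Jak2 as its 1 gene beyond a limit.

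Transcripts used as markers of other cell types were present, and macrophages too can make Il6 and Lif. Of 10 leukocyte markers, 8 were in the table, with a summed level of 267 CPM with IL-17A and 194 CPM with vehicle. Most of it was Lyz2, a lysozyme of myeloid cells, at 227 CPM with IL-17A and 153 CPM with vehicle. Without Lyz2 the sum was 39.9 CPM with IL-17A and 40.5 CPM with vehicle. Counts of other myeloid genes on the list, with IL-17A and then vehicle, were 402 and 408 for Csf1r and 170 and 194 for Adgre1. In the same order, they were 168 and 270 for Cd68 and 84 and 47 for Itgam. The pan-leukocyte gene Ptprc had 88 counts with IL-17A and 87 with vehicle. The T cell gene Cd3e had 0 counts in both libraries, and the Poisson interval of that count reaches 3.69 in each. Endothelial, keratinocyte and mural markers summed to 13.6 CPM with IL-17A and 52.0 CPM with vehicle. Of these sums the smooth-muscle gene Myh11 had 5.87 CPM with IL-17A and 44.0 CPM with vehicle, and without Myh11 they were 7.74 CPM with IL-17A and 7.96 CPM with vehicle. Single genes of this list went either way: the endothelial gene Pecam1 had 33 counts with IL-17A and 11 with vehicle, and the keratinocyte gene Krt14 had 26 with IL-17A and 10 with vehicle. The part of other cell types in the member differences was not tested. In bulk RNA, fewer cells of a type cannot be told apart from less RNA per cell.

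The measured protein-coding genes closest to Il6 in level over both libraries, by Euclidean distance of log2 CPM among 11981 genes, were Rab3c at a distance of 0.23, Ccl6 at 0.25 and Enpp2 at 0.30. Those closest to Lif were Draxin, Rarres2 and Srgap3, all at 0.26. With 2 libraries and no account of gene length, this says only that their CPM were alike in both.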

How the data were processed

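Per the labels' protocols, a PureLink kit was used for RNA and Illumina's stranded mRNA kit for the libraries. STAR, featureCounts and mm10 appear in the submitters' processing notes. Tool versions, gene annotation and strand setting were not given in the sources used here. As values, the authors deposited raw counts per gene symbol, 1 column per library. Library sizes were scaled by TMM in edgeR 4.0.16 (R 4.3.3). No count test can be fitted with 1 library per group, so ratios of scaled counts are given without a test. Their intervals are exact 95% Clopper-Pearson intervals of the share of each gene's counts that fell in the IL-17A library, and ratios between members carry exact conditional intervals, computed for 36 pairs of members and 4 pairs of chromosomal neighbours. Only counting error enters the intervals and the floor, since each group held 1 library. Reads without molecular identifiers may be PCR copies of 1 molecule, so the intervals may be too narrow even for counting error. A library at 0 counts was set to a floor of 3 counts. The calculation was tested on counts simulated with Poisson error only, which cannot show how the intervals fare with variation between cultures. Exon lengths, positions and shared 50-base windows came from GENCODE M21 and promoters from RefSeq, both on GRCm38. Of 9 members, 9 matched GENCODE and 8 had a promoter. The members and lists were chosen with earlier results of these data known. Of the family, 1 gene is not reported here. Named genes were all members, all other listed family genes, the 4 measured genes with the highest absolute ratio of each pathway list, 3 fibroblast markers, the most abundant other marker of each list, and the 3 genes nearest to Il6 and to Lif. Others were chosen after their values were seen: Ptprc, Cd3e, Csf1r, Adgre1, Cd68, Itgam, Pecam1, Cdh5, Tek, Kdr, Krt14, Krt5, Krt10, Rgs5, Pdgfrb and the overlapping genes. Alternatives were other scalings (DESeq2 1.42.0 among them), a prior count, other minimums and other size rules.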

Additional observations from a re-analysis of the deposited data

How the results depend on the processing

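No paired analysis was possible because each group held 1 library, and for the same reason no library could be left out. The counts of members, 2 higher and 0 lower, were the same under total-count, upper-quartile and DESeq2 size-factor scaling, with a prior count of 2, at minimums of 10, 200 and 1 summed counts, at 3-fold, and at 2-fold by the nearer interval bound. At 1.5-fold, 4 members were higher, Clcf1 and Osmr being the additional ones. Scaling shifted all log2 ratios by at most 0.07: with total counts Il6st stood at -0.56 and Osmr at 0.74, and with the upper quartile Il6st stood at -0.53. The cytokine median was 1.82 at a minimum of 10 and with no minimum, since both settings add Il11. Il31ra was the 1 other family gene called lower, and at a minimum of 200 the list had 0, since Il31ra had too few counts. Over all genes, 702 were higher and 500 lower. A minimum of 10 gave 1090 and 955, no minimum gave 1573 and 1335, a limit of 1.5-fold gave 1364 and 1117, and one of 3-fold gave 340 and 219. Lower genes numbered 275 at a minimum of 200 and 277 by the nearer bound. Depth limited Il11, Osm and Ebi3, which had too few counts to be called.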

Other observations

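Several family genes lie beside another member of the family on the chromosome, and neighbours did not always have like ratios. Il6st and Il31ra, on chromosome 13 on opposite strands with 9.81 kb between them in GENCODE M21, both had lower levels with IL-17A, and the fold of Il6st was 3.51 times (95% counting interval 2.14 to 6.07) that of Il31ra. Lifr and Osmr, on chromosome 15 on opposite strands with 216 kb between them, were both higher, with the fold of Lifr 0.836 times (0.763 to 0.916) that of Osmr. Il11ra1 and Cntfr, 2.90 kb apart on chromosome 4 by their GENCODE M21 bounds, had folds that did not differ beyond counting error, at 0.960 times (0.763 to 1.21). The RefSeq promoters of Il11ra1 lie farther off, beginning at 41760193 and 41762060, while Cntfr reaches 41697089. The Il11ra1 counts are uncertain, as given above. Lif and Osm, 16.5 kb apart on chromosome 11 on the same strand, had 1365 and 6 counts with IL-17A and 215 and 2 counts with vehicle. The ratio of the Lif fold to the Osm fold, 2.12 (0.207 to 11.9), could not be resolved from so few Osm counts.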
